A study of Saccharomyces cerevisiae with 50 samples.

Results

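The comparison described here set PGAL-GST-GCN4 yeast, in which a plasmid drives the transcription factor Gcn4 from a galactose promoter, against wild-type yeast with a plasmid of its own. Both groups were Saccharomyces cerevisiae of strain BY4741, MATa, carrying his3Δ1, leu2Δ0, met15Δ0 and ura3Δ0. PGAL-GST-GCN4 cells held the 2μ URA3 plasmid pEGH, on which the GAL1-10 promoter drives GCN4 fused to glutathione S-transferase, and the control, wt(ura3), held the 2μ URA3 plasmid pRS426. The bought overexpression strain kept its own chromosomal GCN4. Poly(A) RNA was sequenced from 3 libraries per group, so that 6 of the 50 libraries of the series were used, and all 5574 of 5739 genes that passed a filter on low counts were tested. A further 6 libraries were used for contrast. In PADH1-GCN4 the ADH1 promoter stands in the chromosome in place of GCN4's own promoter and untranslated leader. The background is his3Δ1 leu2Δ0 ura3Δ0, and the control wt(met) had MET15 put back. All cells were collected in mid-log growth. The labels give a glucose medium unless stated otherwise and do not name another for PGAL-GST-GCN4 and wt(ura3). Galactose genes were highly expressed in both of these groups, as given below, so their medium is uncertain. The replicates are described as biological, without saying more on how they were grown, so p-values measure the spread between these libraries.

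Gcn4 is the activator of the general amino acid control. When amino acids run short, the kinase Gcn2 slows translation initiation, which lets ribosomes reach the GCN4 reading frame behind its upstream open reading frames, and Gcn4 then switches on genes for amino acid, purine and vitamin synthesis. It belongs to the bZIP family and binds as a dimer to a short palindrome-like site. Ribosomal protein genes, by contrast, are driven by Rap1, Ifh1 and Fhl1 and answer to the growth signals of TORC1 and protein kinase A.

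Stretches around the Gcn4 motif are given for responders chosen because they hold it within 500 bases before the start codon. They were read from the RefSeq R64 genome (sacCer3) on the strand of the gene. Other strong responders, DPA10, FRM2, NDE2, UBC11 and ARP10 among them, held none there. The stretches therefore do not stand for the strongest responders as a whole. Capitals mark the motif TGACTCA or its reverse complement TGAGTCA. The genes make vitamin B6 (SNO1, which shares its intergenic region with SNZ1), lysine (LYS1, LYS2), arginine (ARG1, ARG7), histidine (HIS4) and homocysteine (STR3), or encode a cell wall protein (PIR5), a vacuolar membrane transporter of cationic amino acids (RTC2), a sulfate permease (SUL1) and a transcription factor (MET28). SRL4 is shown for its fold change only.
SNO1, chrXIII:458143-458171, minus strand: cccttgtcggcTGAGTCAttatgtcatga
SRL4, chrXVI:488292-488320, minus strand: atttgaattagTGACTCAataataataca
RTC2, chrII:536342-536370, plus strand: ccttgcagcaaTGACTCAaattccattgg
PIR5, chrX:118972-119000, minus strand: ttcgactgtttTGACTCAcaaaattattc
LYS1, chrIX:420969-420997, minus strand: tactaagtcgaTGAGTCAaaaaagactct
LYS2, chrII:474103-474131, minus strand: tttttcgcgtgTGACTCAatgtcgaaata
ARG1, chrXV:218855-218883, plus strand: tgattttttagTGACTCAtgtcgcatttg
ARG7, chrXIII:396514-396542, minus strand: gacaggtaggaTGACTCActgcgtaattc
HIS4, chrIII:68515-68543, minus strand: cccatgcacagTGACTCAcgtttttttat
SUL1, chrII:788847-788875, plus strand: aaatcggaattTGAGTCAcagatcccaga
STR3, chrVII:156384-156412, minus strand: ggttatccggcTGACTCAttctgactctt
MET28, chrIX:384205-384233, minus strand: ggtcactggcgTGAGTCAaggccgggcag

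The marker genes fitted the labelled genotypes except for LEU2. Levels are given as CPM, each library's counts divided by its scaled total, with no correction for gene length. GCN4 stood at 32003, 41901 and 38099 CPM in the PGAL-GST-GCN4 libraries, against 938, 999 and 868 CPM in the wt(ura3) libraries. This was a log2 fold change of 5.32 (SE 0.36, adjusted p = 6.6e-06 by edgeR's quasi-likelihood test), and GCN4 alone took 3.21% to 4.2% of the counted reads of the overexpressing libraries. URA3, the marker of both plasmids, was abundant in every library, at 15004, 19242 and 18937 CPM in PGAL-GST-GCN4 and 15575, 10303 and 11094 CPM in wt(ura3). LEU2, which makes β-isopropylmalate dehydrogenase for leucine synthesis, had 4097, 5307 and 5002 CPM in PGAL-GST-GCN4 but 1.81, 3.37 and 2.83 CPM in wt(ura3). The host allele is leu2Δ0 and the plasmid description names no LEU2, and where these reads came from was not tested. MET17, the current name of MET15, did not pass the count filter, and the host allele is met15Δ0.

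Galactose genes were highly expressed in both groups and not only in the strain with the GAL promoter plasmid. GAL1, the galactokinase, had 3575, 3612 and 3813 CPM in PGAL-GST-GCN4 and 6246, 5316 and 8555 CPM in wt(ura3), whereas it lay between 2.4 and 4.81 CPM in the PADH1-GCN4 and wt(met) libraries, whose table was scaled separately. The difference between the first pair of groups was −0.87 on the log2 scale (SE 0.27, adjusted p = 0.024) and was not called, although the libraries did not overlap. GAL7 (−0.72) and GAL10 (−0.32), which complete the pathway from galactose 1-phosphate, did not pass the test either. Of the 12 galactose genes tested, only the permease GAL2 (−1.21, adjusted p = 0.0024) and the inducer GAL3 (−1.07, adjusted p = 0.002) were called lower, and neither call held without wt(ura3) replicate 3. The call of GAL2 was also lost without PGAL-GST-GCN4 replicate 3. The galactose list had a median log2 fold change of −0.22. GAL4, the activator of these genes, had 16.3, 43.2 and 28.1 CPM in PGAL-GST-GCN4 and 15.6, 29.7 and 22.3 CPM in wt(ura3).

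Mating type markers of both kinds had reads in both groups, which are labelled MATa. The α-factor receptor STE2 lay at 207, 172 and 184 CPM in PGAL-GST-GCN4 and 334, 465 and 346 CPM in wt(ura3), while the α-specific precursor gene MF(ALPHA)1 reached at most 1.86 CPM in the PGAL-GST-GCN4 libraries and 2.41 CPM in wt(ura3). Of 6 a-specific genes, 3 were called lower under overexpression. BAR1, the protease that degrades α-factor, fell to 65.1, 40.7 and 50.2 CPM, against 257, 293 and 212 CPM in wt(ura3) (−2.29, SE 0.21, adjusted p = 4e-05). The a-factor gene MFA2 was called lower at 38.1, 30.9 and 33 CPM, against 95.2, 142 and 124 CPM in wt(ura3) (−1.82, adjusted p = 6.2e-05). STE2 was called lower too (−1.03, adjusted p = 0.0015), but not without PGAL-GST-GCN4 replicate 2 or wt(ura3) replicate 2. MFA1 (−0.95), ASG7 (−0.89) and the agglutinin subunit AGA2 (−0.65) were not called. Of the α-specific genes, STE3, the a-factor receptor, was called higher at 42.8, 53.9 and 44.1 CPM, against 24.2, 16.4 and 26.5 CPM (1.07, adjusted p = 0.0033). It lost the call without PGAL-GST-GCN4 replicate 2 or 3 or without wt(ura3) replicate 2. In every PGAL-GST-GCN4 library STE3 lay above MFA2 and below STE2. CPM is not corrected for gene length, so it does not rank different genes against each other. The agglutinin SAG1 had 17.7, 24.5 and 18.2 CPM against 13, 18.7 and 10.3 CPM (0.53, adjusted p = 0.12). RNA was taken from whole cultures, so fewer cells in a state and less RNA per cell cannot be told apart.

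Depth was similar, with 10722664 to 11985125 counted reads in the PGAL-GST-GCN4 libraries and 11600901 to 13693442 in wt(ura3). The libraries of a group differed from each other by far more than counting noise, with a chi-square of 27.1 to 148 per gene between pairs. PGAL-GST-GCN4 replicate 1 had the lowest GCN4 level and the mildest changes in the lists of amino acid, ribosomal protein and histone genes. Between PGAL-GST-GCN4 and wt(ura3) 1307 genes were called at an adjusted p below 0.01 and more than 2-fold change. The groups differ in plasmid, GST fusion and LEU2 reads as well as in GCN4, and these cannot be told apart. Of the genes tested 780 were higher (14%) and 527 lower (9.45%), and the median over all genes was −0.01 on the log2 scale. Counts of called genes in each list below are to be read beside these shares. Rises were larger than falls: 319 genes rose and 91 fell by more than 2 on the log2 scale.

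**Figure D1:**
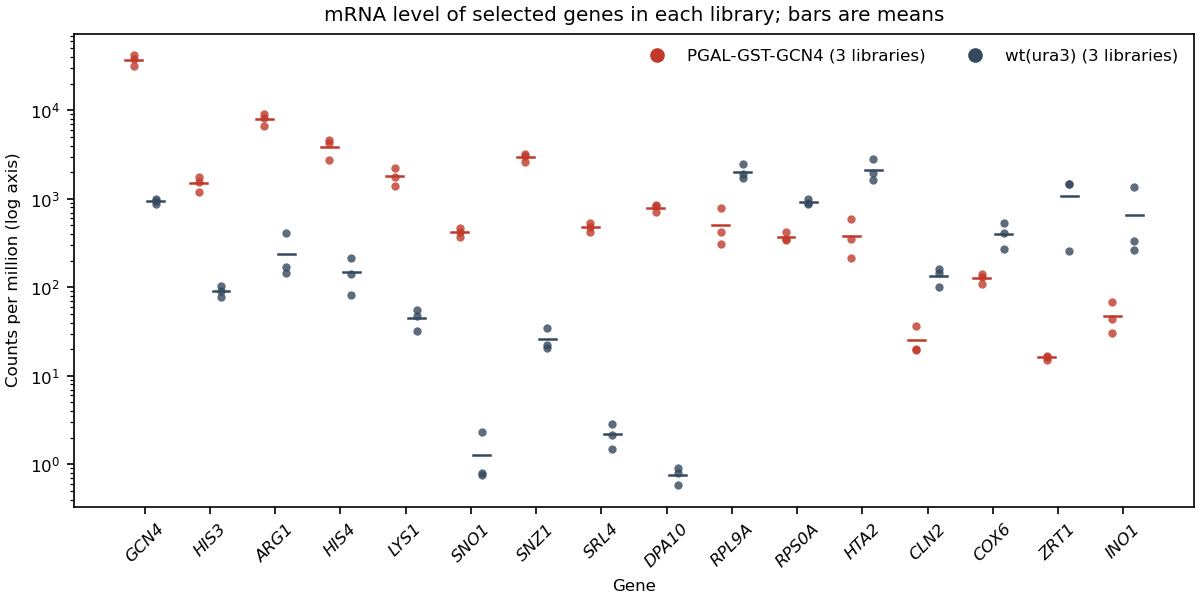
mRNA level in CPM (log axis) of 16 genes in each of 3 PGAL-GST-GCN4 libraries (red) and 3 wt(ura3) libraries (dark blue), with the mean of each group as a bar. GCN4, HIS3, ARG1, HIS4, LYS1, SNO1, SNZ1, SRL4 and DPA10 lay higher in PGAL-GST-GCN4 (DPA10 at 703 to 845 against 0.583 to 0.904 CPM), and RPL9A, RPS0A, HTA2, CLN2, COX6, ZRT1 and INO1 lay lower, with no overlap between groups.

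The amino acid pathways formed the broadest rise. Over all amino acid lists, 74 of 104 genes were called higher and 3 lower, with a median log2 fold change of 2.05, and together these genes took 8.2%, 10.7% and 9.71% of the counted reads in PGAL-GST-GCN4, against 2.1%, 2.44% and 1.8% in wt(ura3). Arginine, lysine and histidine synthesis rose without exception: 10 of 10, 10 of 10 and 6 of 6 genes were called higher, with medians of 3.38, 3.08 and 2.47. LYS1, the last enzyme of lysine synthesis, had 1405, 2209 and 1775 CPM in PGAL-GST-GCN4, against 48, 55.6 and 32.1 CPM in wt(ura3). Its log2 fold change was 5.31 (SE 0.31, adjusted p = 3.2e-06), the largest in the amino acid lists, which leave out the genotype gene LEU2. The smallest lysine response was that of LYS14, the pathway's own activator, at 1.60 (adjusted p = 0.00011).

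ARG1, argininosuccinate synthase, had 6598, 9035 and 8126 CPM in PGAL-GST-GCN4 and 145, 408 and 168 CPM in wt(ura3). ARG1 rose by 5.04 on the log2 scale (SE 0.47, adjusted p = 4.2e-05), and wt(ura3) replicate 2 was the highest of its controls. ARG7, the mitochondrial ornithine acetyltransferase, rose by 3.80, ARG2, the acetylglutamate synthase that starts the pathway, by 3.27, and ORT1, the ornithine carrier, by 2.53. HIS4, a trifunctional enzyme of histidine synthesis, had 2777, 4654 and 4256 CPM against 143, 217 and 82.9 CPM in wt(ura3) (4.72, SE 0.42, adjusted p = 3.1e-05). HIS5 (3.24) and HIS7 (2.76) followed, and HIS6 was the smallest at 1.21 (adjusted p = 0.0015), a call that was lost without wt(ura3) replicate 2, where the value was 0.99. HIS3, whose host allele his3Δ1 is a partial deletion, had 1188, 1762 and 1552 CPM in PGAL-GST-GCN4 and 105, 91.4 and 78.6 CPM in wt(ura3) (4.04, SE 0.24, adjusted p = 3.5e-06). Its groups were wide apart, and the counts do not show how much of the transcript was made.

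The other amino acid lists were mixed. In the aromatic list 11 of 14 genes were called higher (median 2.19), among them TRP4 of tryptophan synthesis (3.40) and ARO3, a first enzyme of the shikimate pathway (3.23), while ARO7, chorismate mutase on the branch to tyrosine and phenylalanine, stood at −0.88 without a call (adjusted p = 0.0028). In the sulfur list 16 of 26 genes were called higher and 1 lower (median 2.16). SUL1, the high-affinity sulfate permease, had 112, 217 and 130 CPM against 1.95, 13.9 and 1.75 CPM in wt(ura3) (4.71, SE 0.71), the widest error among the named amino acid genes. STR3, cystathionine β-lyase, rose by 4.13 and MET1 of siroheme synthesis by 3.39. SAM2, an S-adenosylmethionine synthetase, went the other way, with 215, 117 and 149 CPM in PGAL-GST-GCN4 and 617, 825 and 1122 CPM in wt(ura3) (−2.41, SE 0.30, adjusted p = 0.00021). Branched-chain genes were called higher in 7 of 11 (median 1.32), led by LEU4, isopropylmalate synthase (3.04), and ILV6, the regulatory subunit of acetolactate synthase (2.48), with the cytosolic transaminase BAT2 at −0.06 (adjusted p = 0.78).

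For glutamate, proline and asparagine the count was 8 of 14 higher and 2 lower, with a median of 1.25. Asparagine synthetase ASN1 had 2087, 3383 and 2750 CPM against 235, 307 and 249 CPM in wt(ura3) (3.38, SE 0.26, adjusted p = 1.5e-05), and the mitochondrial aspartate aminotransferase AAT1 rose by 2.79. PRO3, the last enzyme of proline synthesis, fell to 105, 96.3 and 115 CPM, against 237, 306 and 318 CPM in wt(ura3) (−1.44, adjusted p = 0.00015). In the serine, glycine and threonine list 6 of 13 rose (median 0.92), with SER3 (2.33), SER33 (1.54) and SER1 (2.12) of the serine pathway called and its phosphatase SER2 not (−0.36, adjusted p = 0.24). The neighbouring purine pathway had 3 of 11 genes called higher and a median of 0.71. ADE3, which supplies folate intermediates, rose by 2.08 (adjusted p = 0.0006), ADE8 stood at 0.92 and ADE16 at −0.29.

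**Figure D2:**
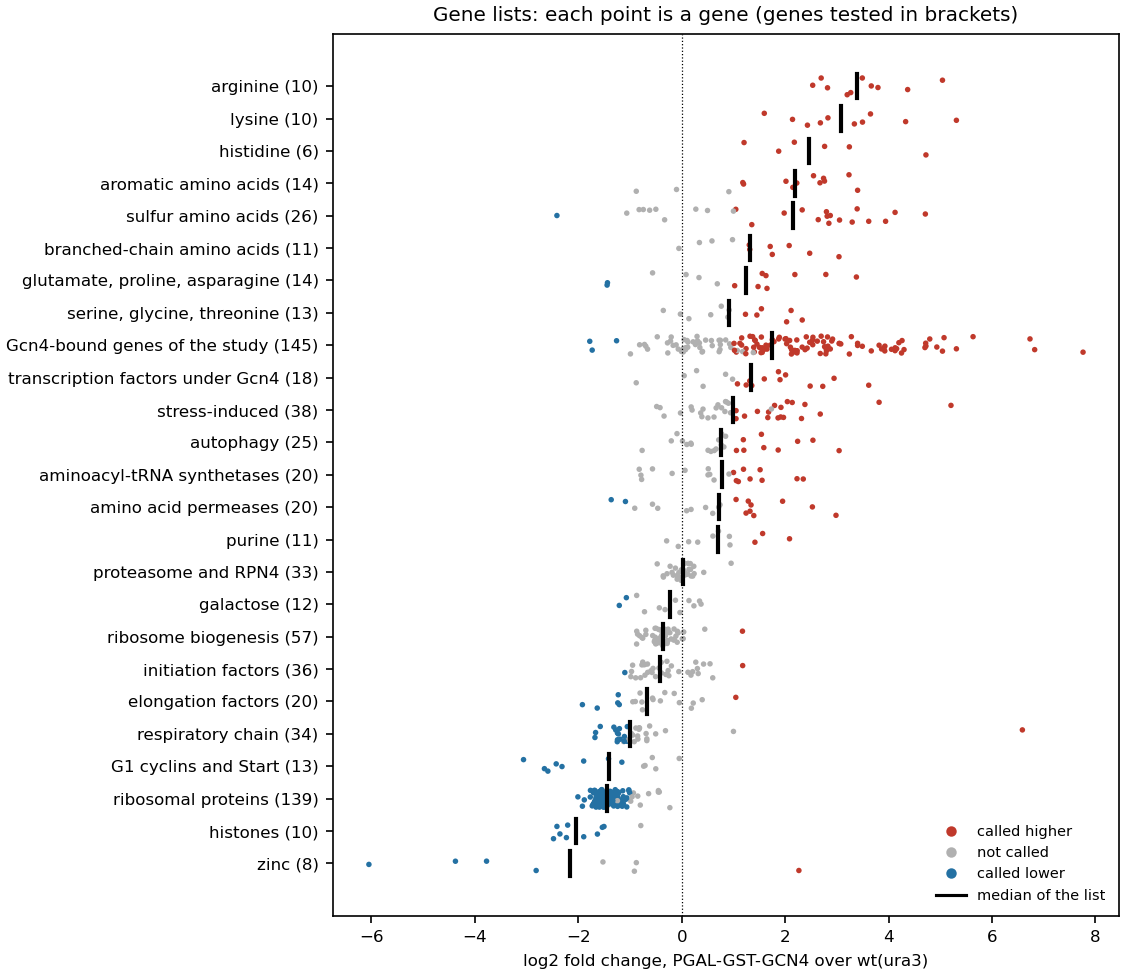
log2 fold change of PGAL-GST-GCN4 over wt(ura3) for every tested gene of 25 gene lists, coloured by call, with the median of each list as a black bar. Medians lay between 3.38 for arginine and −2.17 for zinc, and the proteasome list (median 0.03) had no called gene.

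Beyond enzymes, the response took in vitamin B6 synthesis, transcription factors, transport and tRNA charging. SNO1 and SNZ1, which encode the subunits of the pyridoxal phosphate synthase, were among the strongest: SNO1 had 371, 469 and 418 CPM in PGAL-GST-GCN4 and 0.796, 2.3 and 0.749 CPM in wt(ura3) (8.35, SE 0.39, adjusted p = 1.4e-06). SNZ1 had 2587, 3185 and 3086 CPM against 22.3, 34.7 and 20.6 CPM (6.83, SE 0.32). Of the 11 genes of vitamin B6 and nicotinamide synthesis 6 were called higher, and SNO3, a subtelomeric relative of SNO1, lay at 3.33, 2.51 and 2.75 CPM against 5.14, 3.29 and 5.99 CPM (−0.75, adjusted p = 0.062). Transcription factors placed under Gcn4 by earlier knowledge were called higher in 12 of 18, led by MET28 of the sulfur pathway (3.62) and BAS1 of the purine and histidine pathways (2.95), with CBF1 at −0.88 without a call. Aminoacyl-tRNA synthetases rose in 9 of 20, most for the lysyl enzyme KRS1 (2.35) and the arginyl enzyme encoded by YDR341C (2.23), whereas the seryl enzyme SES1 stood at −0.82 without a call.

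Amino acid permeases split, with 9 of 20 called higher and 2 lower (1 lower without PGAL-GST-GCN4 replicate 2 or 3 or wt(ura3) replicate 2 or 3). MUP3, a methionine permease, rose by 2.98 and AGP1, a broad-range permease, by 2.53, while the valine, leucine and tyrosine permease TAT1 had 143, 82.8 and 84.2 CPM against 215, 278 and 305 CPM in wt(ura3) (−1.36, adjusted p = 0.0016). Of 22 genes that control GCN4 itself 1 was called higher and 1 lower (median 0.01), and 2 were called higher without wt(ura3) replicate 2 or 3. The arginine permease CAN1, which stood on that list, was the riser (1.34, adjusted p = 0.0014), and GCD11, the γ subunit of initiation factor eIF2, was the faller at 125, 130 and 118 CPM against 261, 303 and 233 CPM (−1.10, adjusted p = 0.00042), a call lost without wt(ura3) replicate 2, where the value was −0.99.

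Genes near which Gcn4 was bound in this same overexpression strain, taken as a list from the study's chromatin immunoprecipitation (ChIP), mostly rose. The list was made from separate ChIP libraries and not from these counts. Of its 150 genes 145 were tested, 98 were called higher and 3 lower, and the median was 1.75. SRL4 had 417, 532 and 486 CPM against 2.89, 1.48 and 2.16 CPM in wt(ura3) (7.76, SE 0.28, adjusted p = 4.1e-07), and PIR5, a cell wall protein gene, 442, 673 and 558 CPM against 4.77, 5.18 and 5.74 CPM (6.74, SE 0.24). The 3 that fell were NRM1, a repressor of G1 transcription, at 21.5, 12.9 and 16.3 CPM against 49.3, 58.8 and 65.9 CPM (−1.78, adjusted p = 0.00024), and the ribosomal protein genes RPS24A (−1.73, adjusted p = 0.00083) and RPL14B (−1.26, adjusted p = 0.0021). The call of RPL14B was lost without PGAL-GST-GCN4 replicate 2 or 3. Amino acid genes outside the ChIP list rose too, with 46 of 75 called higher, 3 lower and a median of 1.36.

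The Gcn4 motif TGACTCA, searched on both strands from 250 bases before to 50 bases after the first base of the start codon, was present in 156 of 5572 windows (2.8%). It occurred in 98 of the 780 genes called higher (12.6%), in 4 of the 527 called lower (0.759%) and in 54 of the 4265 not called (1.27%). Among genes up by more than 2 on the log2 scale the share was 20.1%. In the amino acid lists 30.8% of genes held it, and in the ChIP list 22.1%. Within the amino acid lists it stood in 37.8% of the genes called higher and in 11.1% of those not called, and within the ChIP list in 31.6% and 2.27%. Genes with the motif had a median log2 fold change of 1.61 and 62.8% of them were called higher, while the 5416 genes without it had a median of −0.03 and 12.6%. A match says only that the letters are there, and these are shares with no test.

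The share of genes called higher differed by where in the window the motif lay. With its centre 150 to 100 bases before the start codon 22 of 25 genes were called higher (88%), and the shares were 75% of 40 genes at 200 to 150 bases and 71.9% of 32 genes at 250 to 200 bases. At 100 to 50 bases 5 of 17 were called higher (29.4%), at 50 to 0 bases 8 of 15 (53.3%), and inside the first 50 coding bases 11 of 28 (39.3%). The bins of 15 and 17 genes are thin. Several strong responders had the motif further upstream and so outside the window: ARG1 at 342 bases, SUL1 at 374 and STR3 at 386. DPA10, FRM2, NDE2, UBC11, ARP10, LYS20 and STR2 had no TGACTCA within 500 bases, and no more follows from that than the absence of these letters.

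**Figure D3:**
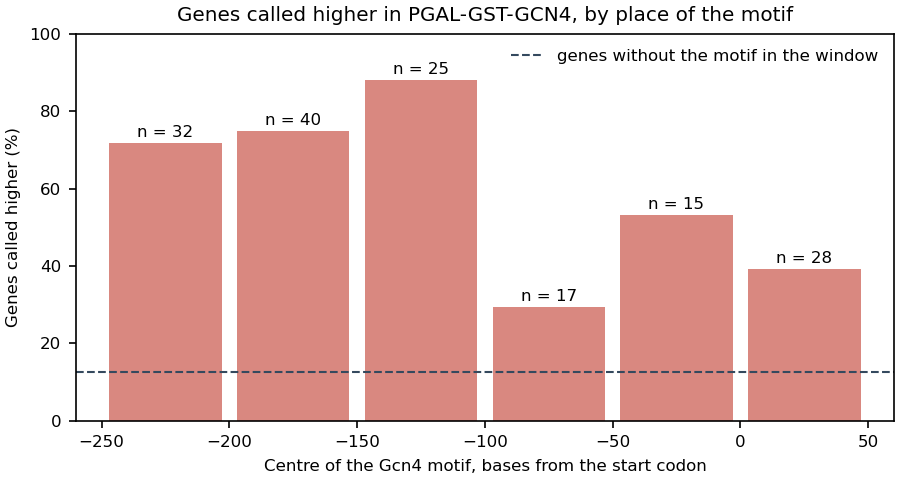
Percent of genes called higher in PGAL-GST-GCN4 by the place of the TGACTCA motif relative to the start codon, in bins of 50 bases with the number of genes above each bar, and the share for genes without the motif as a dashed line (12.6%). The share was 88% for motifs 150 to 100 bases before the start codon and 29.4% at 100 to 50 bases.

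The ribosomal protein genes fell together. Of 139 tested, 128 were called lower and 0 higher by edgeR, all 139 had a negative log2 fold change, and 135 had groups that did not overlap, where 28.2% of all genes lay apart in this direction. The median was −1.44 and the genes ran from −2.01 for RPL9A to −0.23 for RPL22B. As a share of all counted reads they took 11.8%, 7.36% and 8.47% in PGAL-GST-GCN4, against 24.2%, 21.5% and 27.7% in wt(ura3). The call count depended on single libraries: it was 56 without PGAL-GST-GCN4 replicate 3 and 82 without replicate 2, while every alternative left the direction as it was.

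Large and small subunit genes had medians of −1.44 each. Of 81 large-subunit genes 73 were called lower (33 without PGAL-GST-GCN4 replicate 3), and of 56 small-subunit genes 55 were (32 without replicate 2 and 23 without replicate 3). RPL9A had 789, 305 and 421 CPM in PGAL-GST-GCN4 and 1919, 1730 and 2443 CPM in wt(ura3) (SE 0.35, adjusted p = 0.0015), with replicate 1 the highest of the overexpressing libraries. RPS0A had 417, 348 and 340 CPM against 886, 996 and 871 CPM (−1.32, SE 0.18, adjusted p = 0.00037). RPS26B fell by 1.88 on the log2 scale, RPL31B by 1.62 and RPS11A by 1.25. RPL22B was the exception, with 497, 323 and 329 CPM against 557, 309 and 481 CPM and overlapping groups (adjusted p = 0.49). Many of these genes are near-identical pairs that share reads, so the level of a single paralog is uncertain.

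The acidic stalk proteins RPP2A (−1.92, adjusted p = 0.001) and RPP1B (−1.63, adjusted p = 0.00042) led the falls among 20 elongation factor genes, of which 5 were called lower and 1 higher (median −0.66). Stalk proteins are also ribosomal proteins, and RPP1B is counted in the large-subunit list too, so the lists overlap. The count of lower elongation factor calls was 2 without PGAL-GST-GCN4 replicate 2 or 3 and 8 without replicate 1. The riser was HEF3, a second copy of elongation factor eEF3, at 43.4, 47.9 and 48.5 CPM against 19.8, 29.4 and 18.5 CPM (1.05, adjusted p = 0.0031), and it lost the call without PGAL-GST-GCN4 replicate 2 or 3 or wt(ura3) replicate 1 or 3. Of 36 initiation factor genes 1 was called higher, the helicase DBP1 (1.18), and 1 lower, GCD11 (median −0.42). At an unadjusted p below 0.05 by edgeR 4 were higher and 17 lower, where 3175 of all 5574 genes passed in either direction. The lower calls were 3 without wt(ura3) replicate 1 or 2, and 2 without wt(ura3) replicate 3 or PGAL-GST-GCN4 replicate 1. Without PGAL-GST-GCN4 replicate 2 or 3, or wt(ura3) replicate 1, DBP1 was not called. The eIF4A gene TIF1 stood at −0.80 without a call.

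Genes for the making of ribosomes had a median of −0.37. Of 57 such genes 1 was called higher and 0 lower by edgeR and by DESeq2. At an unadjusted p below 0.05 by edgeR 2 were higher and 25 lower, beside 3175 of all 5574 genes in either direction. The gene called higher was KRI1 (1.17, adjusted p = 0.0019), which lost its call without wt(ura3) replicate 1. TIF6 stood at −0.75 and the snoRNP protein gene NOP58 at −0.87, neither called. Without PGAL-GST-GCN4 replicate 1 there were 4 lower calls, among them NOP58 (−1.24, adjusted p = 0.0015). RNA polymerase I had 2 of 15 genes called lower, a share near the 9.45% of all genes. The subunit RPA43 had 111, 83.3 and 78.3 CPM against 298, 279 and 316 CPM in wt(ura3) (−1.71, SE 0.18, adjusted p = 7.3e-05). RRN5 of the upstream activating factor was the other (−1.03, adjusted p = 0.0012), and it was not called without PGAL-GST-GCN4 replicate 2.

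Regulators of ribosomal protein genes were called higher in 3 of 12. CRF1, a corepressor at these promoters, had 145, 203 and 176 CPM against 15.8, 14 and 16.2 CPM in wt(ura3) (3.51, SE 0.18, adjusted p = 1.7e-06). IFH1, their coactivator, had 699, 788 and 611 CPM against 181, 192 and 118 CPM (2.10, SE 0.23, adjusted p = 0.0001). HMO1, a high mobility group protein at these promoters, stood at −0.99 without a call (adjusted p = 0.0092), and was called without PGAL-GST-GCN4 replicate 1 or wt(ura3) replicate 2. In the ribosomal protein promoters TGACTCA was found in 1 of 139 windows (0.719%), and the core of the Rap1 site, ACACCC, in 5.76% of them, beside 5.56% of all windows. For ACACCC no window beyond 250 bases before the start codon was searched. Rap1 sites further upstream, or with other letters, are therefore not counted, and the shares do not show whether these promoters hold more of them.

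**Figure D4:**
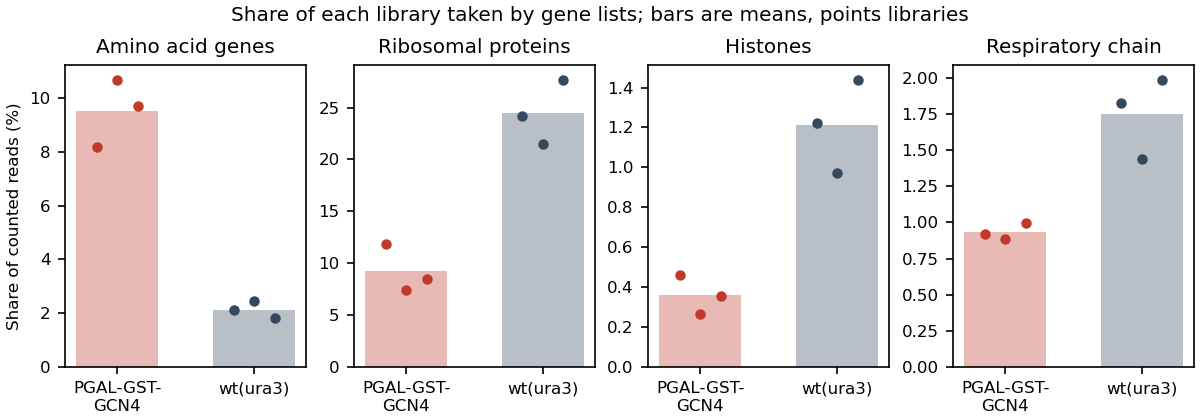
Percent of the counted reads of each library taken by the amino acid lists, the ribosomal proteins, the histones and the respiratory chain, with 3 libraries and the group mean for PGAL-GST-GCN4 (left) and wt(ura3) (right). Amino acid genes took 8.2% to 10.7% against 1.8% to 2.44%, and ribosomal proteins 7.36% to 11.8% against 21.5% to 27.7%.

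Histone genes and genes of the G1 phase were lower as well. Of 10 histone genes 9 were called lower (median −2.05) and all 10 had groups apart. Over all genes 9.45% were called lower and 28.2% lay apart in this direction. HTA2, which encodes histone H2A, had 585, 214 and 350 CPM in PGAL-GST-GCN4 and 1933, 1628 and 2846 CPM in wt(ura3) (−2.48, SE 0.39, adjusted p = 0.00077). The linker histone HHO1 fell to 25.7, 16.7 and 18.4 CPM, against 87.5, 125 and 99.1 CPM in wt(ura3) (−2.35, adjusted p = 3.6e-05), and the variant HTZ1 fell by 1.63 on the log2 scale. HHT2, an H3 gene, stood at −0.79 (adjusted p = 0.0073) and was not called. The count was 8 or 9 with any library left out.

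Among 13 genes of the G1 cyclins and Start 8 were called lower and 0 higher by edgeR, with a median of −1.42. PCL1, a cyclin of the kinase Pho85, had 214, 78.7 and 123 CPM against 1634, 818 and 1016 CPM in wt(ura3) (−3.06, SE 0.41, adjusted p = 0.00031). The G1 cyclins CLN1 (34.2, 22.3 and 23.6 CPM against 156, 190 and 159 CPM) and CLN2 (36.4, 19.5 and 19.9 CPM against 160, 146 and 102 CPM) fell by 2.65 and 2.43 on the log2 scale, while the factor MBP1 that drives S-phase genes lay at −0.05 (adjusted p = 0.82). Whether cells of the groups were spread differently over the cell cycle was not tested.

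Of 34 respiratory chain genes 15 were called lower (median −1.01), among them COX6 of cytochrome oxidase (−1.68, adjusted p = 0.00056) and CYT1, cytochrome c1 (−1.22, adjusted p = 0.00014). COX6 had 140, 110 and 130 CPM against 411, 272 and 533 CPM in wt(ura3). The count was 9 without wt(ura3) replicate 3 and 23 without wt(ura3) replicate 2. The exception in the list was NDE2, an external mitochondrial NADH dehydrogenase, with 299, 539 and 496 CPM against 4.2, 6.41 and 3.25 CPM (6.59, SE 0.35, adjusted p = 2.2e-06). With the replicate number as a block 2 genes of the list were called higher.

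Carbon metabolism changed in single genes, where 14% of all genes were called higher and 9.45% lower. The shares called in the citric acid cycle and hexose transport lists were near these. The glucose-repressed list had 5 of 14 higher and 1 lower (median 0.74), with ICL1, isocitrate lyase of the glyoxylate cycle, at 866, 880 and 890 CPM against 39.4, 42.7 and 45.8 CPM (4.36, SE 0.18, adjusted p = 7.3e-07). The regulator SIP4 rose by 3.77, and ADH2, alcohol dehydrogenase, fell to 0.555, 0.93 and 1.5 CPM, against 9.84, 7.72 and 11.6 CPM in wt(ura3) (−3.26). In the list of the citric acid cycle and its retrograde targets 3 of 22 were higher and 3 lower (median −0.02), with CIT3 at 2.51, IDP1, which supplies 2-oxoglutarate in mitochondria, at 2.18, and the peroxisomal citrate synthase CIT2 at −1.66 without a call (adjusted p = 0.042). CIT2 was called with the replicate block (−1.57, adjusted p = 0.00011), in the fit of 12 libraries and without PGAL-GST-GCN4 replicate 1. The list had 5 higher calls without wt(ura3) replicate 1 and 1 lower call without wt(ura3) replicate 3. Hexose transport had 2 of 15 higher, HXT5 (153, 102 and 122 CPM against 9.76, 16.8 and 5.99 CPM, 3.53) and HXT1 at no more than 3.42 CPM, and 1 lower. HXT6, at 0.74, 2.05 and 1.66 CPM against 1.01, 9.2 and 24.5 CPM, was not called (−2.95, adjusted p = 0.025). It was called with the replicate block (−2.61, adjusted p = 0.0017), which brought the lower calls of that list to 2, in the fit of 12 libraries (−2.95, adjusted p = 0.0072) and without wt(ura3) replicate 1 (−3.49, adjusted p = 0.0011), where the list had 3 lower calls.

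Stress-induced genes rose in 18 of 38 (median 1.00), and 0 fell by edgeR, by DESeq2 or at an unadjusted p below 0.05. SIP18, a protein of desiccation and osmotic stress, had 538, 437 and 777 CPM against 7.16, 26.6 and 13.7 CPM in wt(ura3) (5.21, SE 0.48, adjusted p = 4.1e-05), and the mitochondrial disaggregase HSP78 had 1956, 2684 and 2581 CPM against 142, 168 and 203 CPM (3.82, SE 0.25). SSA3, a stress-induced HSP70, rose by 2.04, and UGP1 of glycogen synthesis stood at −0.48 without a call. Chaperones of the HSP70 and HSP90 families were called higher in 2 of 18 (median 0.02), SSE2 (1.78) and the heat shock factor HSF1 placed with them (1.34), with KAR2 of the endoplasmic reticulum at −0.92, called lower without wt(ura3) replicate 3 and under no other alternative run. Of 33 genes of the proteasome and its activator 0 were called by edgeR or DESeq2, while 2 were higher and 3 lower at an unadjusted p below 0.05, and RPN4, the activator, stood at 0.96 (adjusted p = 0.00093), under the 2-fold limit. Without PGAL-GST-GCN4 replicate 1 or wt(ura3) replicate 1 it was called.

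Antioxidant genes rose in 7 of 23 and 1 fell. The catalase CTT1 had 253, 79.7 and 161 CPM against 27.4, 51.6 and 20.2 CPM (2.32, adjusted p = 0.0024, not called without wt(ura3) replicate 1), cytochrome c peroxidase CCP1 rose by 2.12 and glutathione reductase GLR1 by 1.85. The thioredoxin TRX1 was the faller (−1.05, adjusted p = 0.0058), and its call was lost when any overexpressing library or wt(ura3) replicate 3 was left out. Autophagy genes rose in 9 of 25 (median 0.77), with ATG41 at 1630, 2071 and 1715 CPM against 274, 331 and 51.8 CPM (3.04, SE 0.57, adjusted p = 0.002), ATG18 at 2.24, ATG2 at 1.59 and ATG5 at −0.77 without a call.

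Zinc and iron genes were called in both directions, as were all genes (14% higher and 9.45% lower), and few phosphate genes were called. Of 8 genes answering to zinc, 4 were called lower and 1 higher (median −2.17). The high-affinity zinc transporter ZRT1 had 16.8, 15.1 and 16.5 CPM in PGAL-GST-GCN4 and 1486, 1465 and 254.8 CPM in wt(ura3) (−6.05, SE 0.65, adjusted p = 9.6e-05), so that wt(ura3) replicate 3 stood well below the other controls. Without that library 7 of the 8 were called lower, and without any other single library 2 were. IZH1, a membrane protein of zinc homeostasis, rose by 2.27. Iron genes split 4 higher and 3 lower of 19, with the reductase FRE2 at 2.05, the enterobactin transporter ENB1 at 1.98, and TIS11, which degrades mRNAs under iron shortage, at 4.72, 5.58 and 5.58 CPM against 31.8, 23.1 and 32.1 CPM (−2.45, adjusted p = 3.8e-05). Of 15 phosphate genes 2 were called higher and 0 lower by edgeR, no larger a share than over all genes (14% and 9.45%), namely PHO8, the vacuolar phosphatase (2.60, adjusted p = 4.3e-06), and SPL2 (1.45, adjusted p = 0.0026), and PHM6 stood at −0.96 without a call. SPL2 lost its call without PGAL-GST-GCN4 replicate 2 or 3 or wt(ura3) replicate 1.

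With the genotype genes set aside, of which LEU2 rose by 10.81, the largest rise of a gene averaging 4 or more on the log2 CPM scale was that of DPA10, with 845, 827 and 703 CPM in PGAL-GST-GCN4 and 0.796, 0.904 and 0.583 CPM in wt(ura3) (10.00, SE 0.27, adjusted p = 1.5e-07). After SNO1, SRL4 and SNZ1 came RTC2, with 788, 1118 and 994 CPM against 6.8, 9.37 and 9.41 CPM (6.83), and PIR5. FRM2, a nitroreductase-like protein, had 153, 235 and 160 CPM against 1.81, 1.56 and 2.16 CPM (6.62), and UBC11, a ubiquitin-conjugating enzyme, 235, 227 and 237 CPM against 4.27, 3.45 and 4.16 CPM (5.87). ARP10, a component of dynactin, had 528, 510 and 530 CPM against 10.6, 7.23 and 13.7 CPM (5.63, SE 0.26). With NDE2 these made up the 10 largest rises at that level outside the genotype genes. Groups that did not overlap were a condition of the choice, so their separation is no further result. Most of these genes reached the level only through the overexpressing libraries. CDA2, which rose by 6.92, was left out by the level limit.

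Among the 10 largest falls, after ZRT1, was ZPS1, a cell surface protein of zinc-poor conditions, with 39.8, 42.5 and 35.6 CPM against 1050, 1355 and 42.8 CPM (−4.38, SE 0.96, adjusted p = 0.0047). Its groups were barely apart, with wt(ura3) replicate 3 next to the overexpressing libraries, and the call was lost when any library other than that one was left out. IMD2, an IMP dehydrogenase of GTP synthesis, had 7.13, 5.39 and 5.08 CPM against 52.9, 73.6 and 136 CPM (−3.90, SE 0.37, adjusted p = 4.5e-05). INO1, inositol phosphate synthase, had 69.1, 30.3 and 43.9 CPM against 262, 332 and 1367 CPM (−3.77, SE 0.65, adjusted p = 0.0013). The controls of INO1 were uneven, and all lay above the overexpressing libraries.

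The sporulation gene SPS4 (−3.47), RDT1 (−3.23), and SVS1 (−3.15), PRY2 (−3.13) and SRL1 (−3.10), which encode secreted or cell wall proteins, were the next. PRY2 had 103, 41.9 and 49.4 CPM against 880, 500 and 319 CPM in wt(ura3), and SRL1 37.9, 30.3 and 27.6 CPM against 304, 329 and 188 CPM. TDH1, a glyceraldehyde phosphate dehydrogenase with close paralogs, had 8.98, 8.09 and 9.99 CPM against 31, 184 and 26 CPM (−3.15, adjusted p = 0.0055), and its call was lost when any overexpressing library was left out.

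To see how much of this was shared with another GCN4 overexpression, PADH1-GCN4 was set against its own control, wt(met), so that the pairs shared no library. There GCN4 had 3822, 3605 and 4136 CPM in PADH1-GCN4 against 1057, 967 and 1172 CPM in wt(met) (1.86, adjusted p = 9.4e-08). This mRNA response was smaller than in PGAL-GST-GCN4 (interaction 3.50, adjusted p = 7.2e-07), and mRNA does not give the level of Gcn4 protein. Of 5547 genes 360 were called higher (6.49%) and 110 lower (1.98%). Across 5518 genes tested in both pairs the log2 fold changes had a Pearson correlation of 0.662 and a Spearman correlation of 0.61, as a description over genes, which are not independent replicates. Of the genes called higher in PGAL-GST-GCN4 292 were also called higher in PADH1-GCN4, which is 38.4% of the one and 81.8% of the other. Only 32 were called lower in both, or 6.12% and 30.5%. The strains differ in more than the level of GCN4: in promoter, GST fusion, plasmid, auxotrophies and the state of the galactose genes. The growth medium, not named for PGAL-GST-GCN4 and wt(ura3), may differ too, and these cannot be told apart.

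The difference between the responses was tested as an interaction in 1 fit of the 12 libraries. Of 5603 genes 403 had a higher response to PGAL-GST-GCN4 (7.19%) and 258 a lower one (4.6%), while DESeq2 gave 396 and 397. The amino acid lists had 74 of 104 genes called higher in each strain, with medians of 2.05 in PGAL-GST-GCN4 and 1.79 in PADH1-GCN4, and the interaction called 8 genes higher and 9 lower. The response of ARG1 was the smaller in PGAL-GST-GCN4, at 5.04, against 7.01 in PADH1-GCN4 (interaction −1.93, adjusted p = 0.0043), with its level in the overexpressing cells given above. LEU1, isopropylmalate isomerase, named here after its values were seen, had 1331, 1562 and 1337 CPM in PGAL-GST-GCN4 and 1110, 1453 and 775 CPM in wt(ura3) (0.34, adjusted p = 0.29), against a log2 fold change of 2.49 in PADH1-GCN4 (interaction −2.11, adjusted p = 8.4e-05).

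The ribosomal proteins had a median of −1.44 in PGAL-GST-GCN4, with 128 of 139 called lower, and of −0.44 in PADH1-GCN4, with 0 called by edgeR and 121 lower at an unadjusted p below 0.05. The interaction had a median of −0.96 and called 24 of the 139 lower. For histones the medians were −2.05 and −0.37, and the interaction called 8 of 10 lower, HTA2 by −1.87 (adjusted p = 0.0036). G1 and Start genes had medians of −1.42 and −0.25, and the interaction called 6 of 13 lower.

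Stress-induced genes had medians of opposite sign, 1.00 in PGAL-GST-GCN4, with 18 higher and 0 lower by edgeR, and −0.28 in PADH1-GCN4, with 2 higher and 8 lower, and the interaction called 21 of 38 higher. Of 15 phosphate genes 2 were called higher and 0 lower by edgeR in PGAL-GST-GCN4 (median 0.09), while 12 were called lower in PADH1-GCN4 (median −1.97). SPL2 stood at 0.999, 0.982 and 1.52 CPM in PADH1-GCN4 and 53.5, 52.2 and 53.9 CPM in wt(met), but at 6.2, 11.7 and 8.99 CPM in PGAL-GST-GCN4 and 2.97, 3.53 and 3.33 CPM in wt(ura3). The controls of the pairs lay far apart in this gene. The tables of the pairs were scaled separately.

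**Figure D5:**
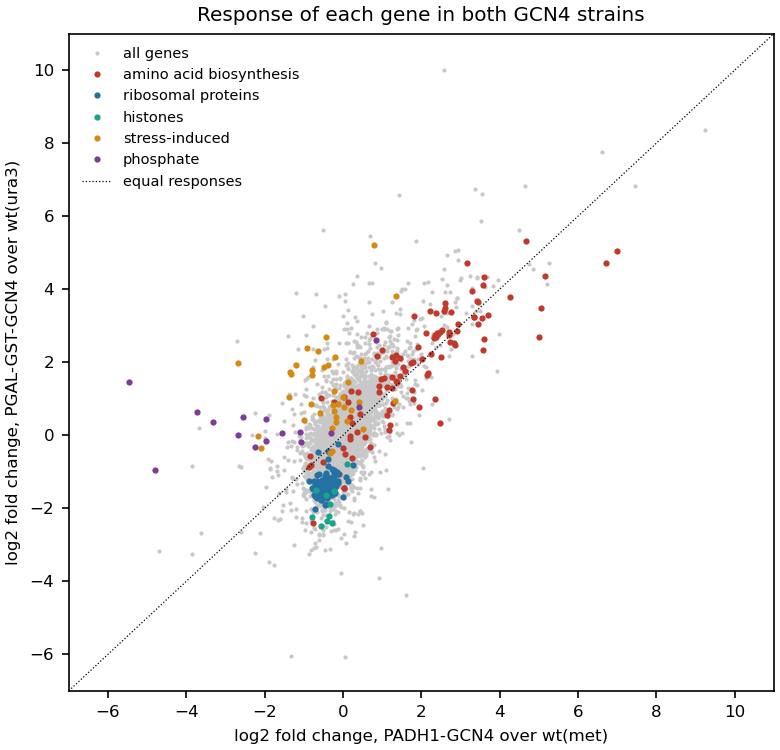
log2 fold change of each gene in PGAL-GST-GCN4 over wt(ura3) (vertical) against that in PADH1-GCN4 over wt(met) (horizontal), with 5 gene lists coloured and the line of equal responses dotted. Amino acid genes (medians 2.05 and 1.79) lay along the line, ribosomal proteins (−1.44 and −0.44) and histones (−2.05 and −0.37) below it, and stress-induced genes (1.00 and −0.28) and phosphate genes (0.09 and −1.97) above it.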

How the data were processed

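The authors deposited raw mRNA counts for each gene and library. Their methods name adapter trimming (FASTX toolkit), alignment with segemehl to yeast transcripts and counting of reads with a single place. The submitters' processing notes list DESeq2 and the build sacCer3, and the use of strand in counting is not stated there, so genes that overlap an antisense neighbour, and near-identical copies, are uncertain. Deposited tables of the authors' own fold changes, and the counts of the other strains, were not used.

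Groups came from the sample labels. Counts were fitted in R 4.3.3 with edgeR 4.0.16 after filterByExpr and TMM scaling, with glmQLFit and glmQLFTest (two-sided) on the 6 libraries of a pair, or on 12 for the interaction. Benjamini-Hochberg adjustment ran over every gene tested. Calls needed an adjusted p below 0.01 with more than 2-fold change, the thresholds of the study. An exact permutation test of 3 against 3 libraries cannot go below p = 0.1 and was not used. SE is that of the log2 fold change. Totals ran from 10722664 to 13693442 counted reads for the pair described and from 14061819 to 25642672 for PADH1-GCN4 and wt(met). Same-numbered libraries of the pair deviated together (correlations of 0.367, 0.447 and 0.425, against −0.404 to 0.017 otherwise), which was taken to pair them, and a fit with the replicate number as a block was an alternative. Others were DESeq2 1.42.0, its size factors in edgeR, no count filter, scaling without plasmid and galactose genes, 1 fit of 12 libraries, no fold minimum, each library left out and, for motifs, the core TGACTC. A window of 500 bases was chosen after seeing the data. The scripts were tested on simulated data.

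Gene lists came from background knowledge and, for ribosomal proteins, translation factors and ChIP targets, from the study's supplement. Members and lists were chosen with earlier results of these data known. Named genes were those of the genotype, galactose and mating type, the 10 largest rises and falls among called genes with mean log2 CPM of at least 4 and groups apart, genotype genes set aside, for each list the largest rise and fall and the lowest adjusted p, and the 5 largest interactions each way. Names and sequences came from RefSeq R64, in which 5737 of 5739 IDs were matched. A gene and a sequence withheld for evaluation are not reported here.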

Additional observations from a re-analysis of the deposited data

Results flagged for a closer look

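The responses to PGAL-GST-GCN4 and to PADH1-GCN4 differed when the difference itself was tested (interaction, edgeR, adjusted p below 0.01 and more than 2-fold), with 403 genes higher and 258 lower in PGAL-GST-GCN4. The 5 largest positive interactions among genes averaging 4 or more on the log2 CPM scale over the 12 libraries were those of DPA10 (7.46, adjusted p = 3.3e-07), SPL2 (6.96, adjusted p = 1.5e-08), the dynactin gene ARP10 (6.19, adjusted p = 1.5e-08), the NADH dehydrogenase NDE2 (5.19, adjusted p = 1e-06) and the phosphatase PHM8 (5.14, adjusted p = 8.2e-06). SPL2 reached that level through wt(met), and DPA10, ARP10 and NDE2 through PGAL-GST-GCN4, while their other groups were low. PHM8 had 58.6, 45.5 and 57.1 CPM in PGAL-GST-GCN4 and 2.17, 6.41 and 2.16 CPM in wt(ura3), against 4.27, 9.96 and 7.11 CPM in PADH1-GCN4 and 16.5, 17.7 and 14.3 CPM in wt(met). Its direction was opposite in the pairs. ARP10 had 528, 510 and 530 CPM in PGAL-GST-GCN4, and lay at 4.08 to 4.7 CPM in PADH1-GCN4 and 4.97 to 7.3 CPM in wt(met).

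The 5 largest negative interactions were those of ZPS1 (−5.95, adjusted p = 0.00085), IMD2 (−4.79, adjusted p = 1.5e-06), ZRT1 (−4.67, adjusted p = 0.00013), INO1 (−3.69, adjusted p = 0.0025) and SIM1, a cell wall gene (−3.01, adjusted p = 0.0001). IMD2 had 174, 146 and 177 CPM in PADH1-GCN4 against 85.2, 93 and 84.9 CPM in wt(met). SIM1 had 28.1, 15.2 and 17.9 CPM in PGAL-GST-GCN4 and 164, 161 and 91.7 CPM in wt(ura3), while its groups overlapped in the other pair, at 275, 435 and 372 CPM in PADH1-GCN4 and 282, 393 and 218 CPM in wt(met). ZPS1 had 1050, 1355 and 42.8 CPM in wt(ura3), with replicate 3 close to the overexpressing libraries, and its interaction was called with each library left out in turn. INO1 stood at 3.83 to 6.12 CPM in PADH1-GCN4 and at 4.69 to 4.96 CPM in wt(met), and ZRT1 at 8.62 to 11.4 CPM in PADH1-GCN4 and 22.2 to 27.8 CPM in wt(met).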

How the results depend on the processing

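No called value turned its sign under the alternatives run, while medians and genes near 0 did with 1 library left out, such as GAL4 (−0.019 to 0.662), MBP1 (−0.142 to 0.102), BAT2 (−0.153 to 0.034) and the median of iron genes (−0.069 to 0.284). Of 1858 refits of 155 named genes 1800 left the call as it was, 41 lost it and 17 gained it. The paired fit with the replicate number as a block called 808 genes higher and 556 lower, and 1296 of the 1307 called genes were called there too. Among the named genes the block changed no call other than those of CIT2 and HXT6. Scaling by DESeq2's size factors moved the median of all genes to −0.03 and gave 759 and 545 calls, and DESeq2 itself 785 and 589. Without a fold minimum 820 genes were called lower, beside 527. Leaving out 1 library gave 723 to 787 higher and 395 to 570 lower calls, and 1098 to 1246 of the 1307 genes were called again. For the interaction, DESeq2 called 397 lower, and leaving out 1 library gave 182 to 395, the highest without PGAL-GST-GCN4 replicate 1 and 391 without wt(ura3) replicate 3. The interaction of INO1 was not called without PADH1-GCN4 replicate 3 (adjusted p = 0.012). The median of the ChIP list ran from 1.702 to 1.924 with 1 library left out. With the core TGACTC 24.1% of promoters of genes called higher, 4.55% of those called lower and 8.31% of all held the motif, and with TGACTCA in 500 bases 16.5%, 1.71% and 4.18%. The causes of these shifts were not tested. Genes of a few counts, such as CDA2 in wt(ura3), are limited by depth. HMO1 was called lower with DESeq2 (−1.01, adjusted p = 0.00019). The TMM scaling without plasmid and galactose genes gave 780 and 527 calls.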

Other observations

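Calls of neighbouring genes are given by their orientation, as a description with no test. Among 1442 divergent pairs of neighbours 66 had both genes called higher, so that 34.6% of the risers in such pairs had a rising partner, beside 21.6% in 2653 tandem pairs and 13.5% in 1432 convergent pairs. For genes called lower the shares were 22.1%, 17.5% and 12.3%. The pairs named here were chosen after their values were seen. SNO1 and SNZ1 (8.35 and 6.83) are 448 bases apart. DPA10 and CDA2, a chitin deacetylase of spores, are 825 bases apart (10.00 and 6.92), and CDA2 had 23.2, 27 and 20.7 CPM in PGAL-GST-GCN4 and 0, 0.164 and 0.416 CPM in wt(ura3). ARP10 stood beside TMS1, a membrane protein gene, with 639, 643 and 682 CPM against 97.4, 87.6 and 99.4 CPM (2.79). HIS3 stood beside MRM1, which methylates mitochondrial ribosomal RNA, with 551, 677 and 626 CPM against 144, 139 and 165 CPM (2.05). The partners SIP18 and PAI3, a proteinase inhibitor, rose by 5.21 and 3.65.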
